A study of Mus musculus with 24 samples.

Results

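Neutrophil granule and granulocyte genes were followed as a group of 37 listed genes in bone marrow cells of mice labelled BAP1 wild-type or BAP1 knockout. The list was matched to the array's gene symbols without regard to case, a probe was found for 34 of the 37 genes, and each of these had 1 probe. Pglyrp1, Cybb and Cyba had no matching probe and were not analysed here. The array measured 17741 genes in all, with 22439 probes.

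BAP1 is a nuclear deubiquitinase that removes ubiquitin from histones as part of a Polycomb-type complex. The mice were of the C57BL/6 strain. Per the labels, tamoxifen injections brought about a systemic deletion of BAP1. The sources used here name no Cre driver, no ages and no other allele, and do not say whether the wild-type mice received tamoxifen too. Cells were sorted as HSC-enriched lineage-negative, Sca-1-positive, Kit-positive cells (LSK cells, the fraction that holds the blood stem cells) or as lineage-negative, Sca-1-negative, Kit-positive myeloid progenitors. Wild-type LSK cells came from mice 1 and 3, knockout LSK cells from mice 2 and 4, wild-type myeloid progenitors from mice 5 and 6, and knockout myeloid progenitors from mice 7 and 8. Each of the 8 mice was measured on 3 arrays of 1 colour (24 arrays), and the 3 arrays of a mouse were averaged, so every group has n = 2 mice.

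Neutrophils store their weapons in granules that are filled in waves as the cells mature. Genes of the primary (azurophil) granules, such as the serine proteases and myeloperoxidase, are transcribed first, in granulocyte-monocyte progenitors and promyelocytes. Genes of the secondary and tertiary granules, such as lactoferrin, cathelicidin and gelatinase, follow later, in myelocytes and beyond, when the primary genes are already falling, and factors of the C/EBP family act at both steps.

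All values are on the log2 scale of the deposited table, on which a difference of 1 is a doubling. Probes differ in brightness for the same amount of RNA, so a gene is compared only with itself across mice. The table ran from 5.66 to 15.93, the median probe had a mean of 7.20, and group means under 6.5 were treated as dim, so that a fold from them is a minimum. Arrays of a mouse correlated with a median r of 0.994 over probes and those of 2 mice from the same group with 0.987. The Bap1 probe was not lower in the mice labelled knockout: its mouse means were 11.55 and 11.45 in wild-type LSK cells, 11.96 and 11.84 in knockout LSK cells, 11.54 and 11.59 in wild-type myeloid progenitors and 11.67 and 11.85 in knockout myeloid progenitors. Where this probe lies relative to the deletion is unknown here, so it checks nothing about the deletion, and the directions below rest on the labels. Kit was bright in all 8 mice (12.76 to 13.49), and Ly6a, which encodes Sca-1, had no matching probe. Of 9 measured stem cell genes, 7 were called higher in wild-type LSK cells than in wild-type myeloid progenitors (median difference 2.31). Over all genes 8.08% were called higher in that comparison. The Y-linked gene Kdm5d gave a signal in mouse 1 (7.88) and mouse 5 (8.15), both wild-type, and stayed between 5.93 and 6.02 in the other 6 mice. In bulk samples of this kind, fewer cells of a type and less RNA per cell cannot be told apart.

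**Figure D1:**
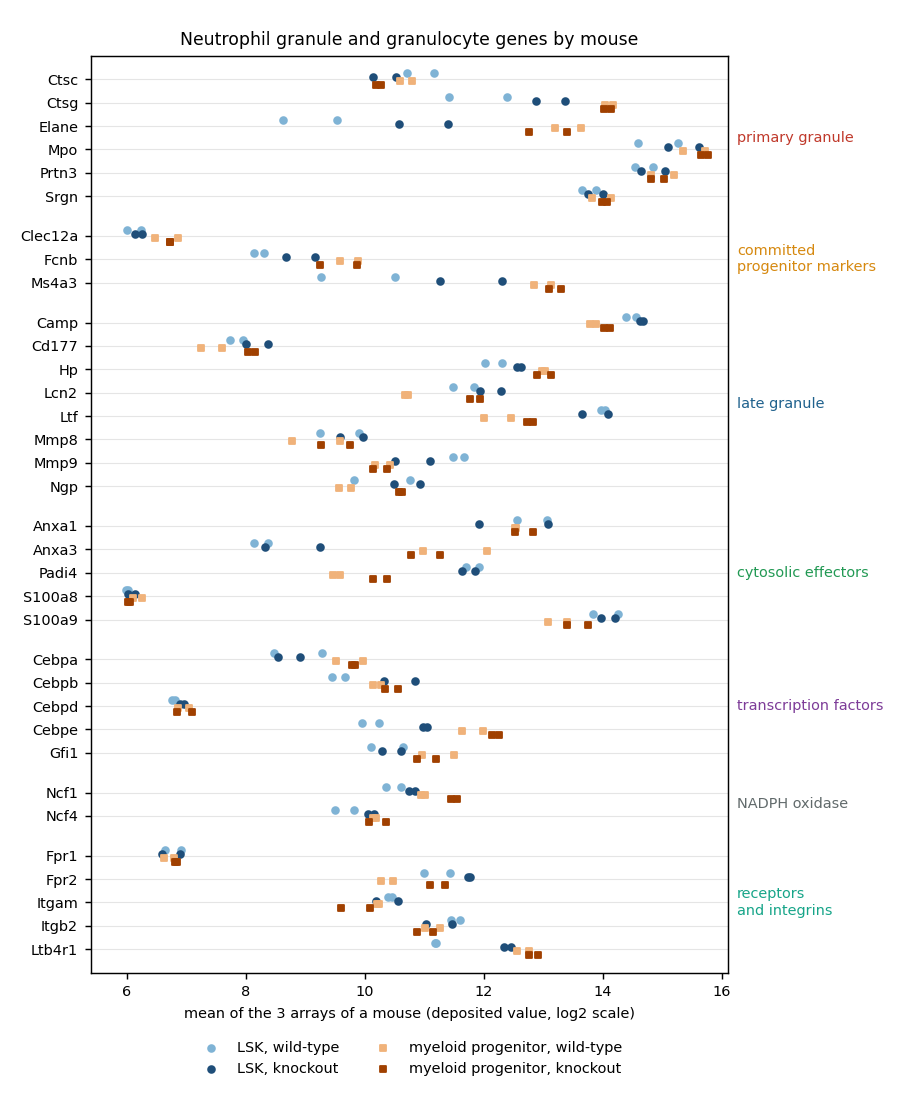
Mouse means (mean of 3 arrays, log2 scale, x axis) of the 34 measured genes, grouped by role at the right. Circles are LSK cells and squares are myeloid progenitors, with wild-type mice in the paler shade, and there are 2 points for each group. Elane spans 5.00 log2 units over the 8 mice, Ms4a3 4.02 and Anxa3 3.92, while Srgn spans 0.48 and S100a8 stays at the bottom of the scale.

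The 2 sorted populations of wild-type mice differed in many of these genes. In wild-type LSK cells against wild-type myeloid progenitors, 7 of the 34 genes were higher and 9 were lower at an adjusted p under 0.05 (limma, Benjamini-Hochberg over all probes), while 13.5% of all genes were called in that comparison. In the knockout mice the same comparison gave 3 genes higher and 6 lower, with 12.8% of all genes called. The members' median difference was -0.19 in wild-type mice (-0.0257 over all genes) and -0.08 in knockout mice (-0.0101 over all genes). In wild-type mice, 5 of 6 primary granule genes and 3 of 3 committed progenitor genes had negative differences, and 7 of 8 late granule genes had positive ones, the exceptions being Ctsc and Hp.

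Knockout against wild-type gave fewer calls, and every call was upward. In LSK cells 5 of 34 genes rose and 0 fell, with 4.64% of all genes called in either direction and 1.74% called higher. In myeloid progenitors 1 of 34 rose and 0 fell, with 2.64% of all genes called and 0.908% called higher. At an unadjusted p under 0.05, 11 members passed in LSK cells, where 16.6% of all genes did, and 8 in myeloid progenitors, where 11.4% did. The median change of the 34 genes was 0.19 in LSK cells (0.0155 over all genes) and 0.09 in myeloid progenitors (0.0014 over all genes), and 25 and 23 of the 34 changes were positive, against 54.5% and 50.5% of all genes. As the mean of both populations, 5 genes rose and 0 fell, with 7.95% of all genes called. The difference of the knockout effect between the populations passed the threshold for 0 of the 34 genes in limma and for 11 genes of the whole array (0.062%). At an unadjusted p under 0.05 it passed for 10 members and for 6.35% of all genes.

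Seen gene by gene without a test, both knockout mice lay above both wild-type mice for 15 members in LSK cells and for 13 in myeloid progenitors, and below them for 2 and 3. Over all genes the corresponding shares were 25.7% above and 20.9% below in LSK cells, and 20.3% above and 20.8% below in myeloid progenitors. Between the populations, both wild-type LSK mice lay above both wild-type myeloid progenitor mice for 12 members and below for 17, against 24.8% and 32.4% of all genes. In knockout mice the counts were 8 above and 13 below, against 25.7% and 29.9%.

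**Figure D2:**
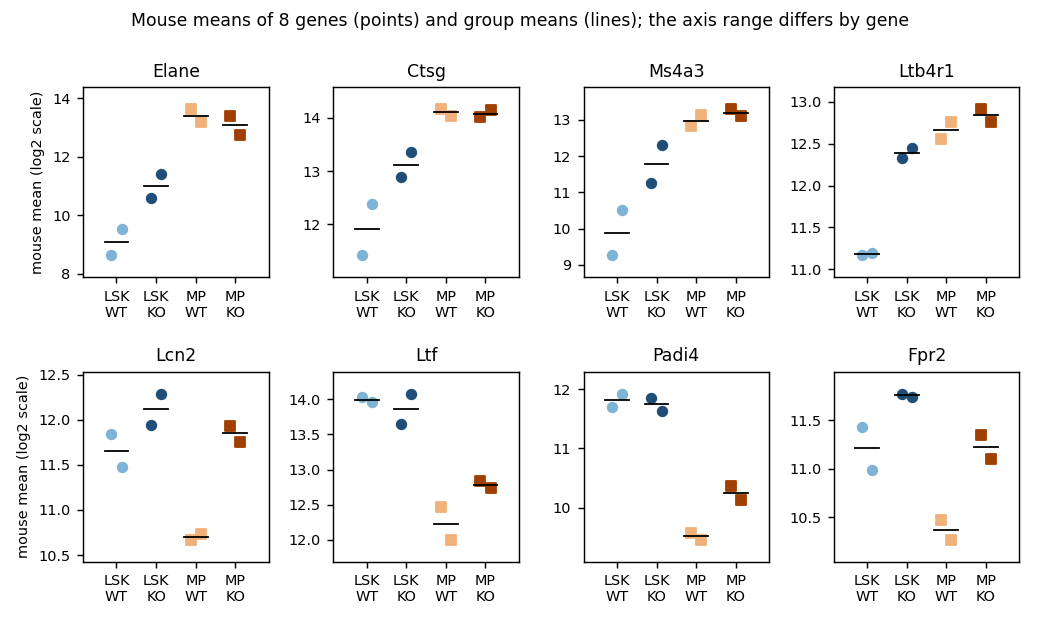
Mouse means (points, mean of 3 arrays, log2 scale) and group means (lines) of 8 genes in LSK cells and myeloid progenitors (MP) of wild-type (WT) and knockout (KO) mice. The vertical range differs by gene. In the upper row the wild-type LSK mice are lowest. In the lower row the wild-type myeloid progenitor mice are lowest.

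The primary granule genes comprised 6 members, and their largest mover was Elane, which encodes neutrophil elastase, the serine protease whose mutation underlies most severe congenital neutropenia. Its mouse means were 8.63 and 9.54 in wild-type LSK cells, 10.58 and 11.40 in knockout LSK cells, 13.63 and 13.20 in wild-type myeloid progenitors and 13.39 and 12.76 in knockout myeloid progenitors. Within LSK cells the knockout mice lay above the wild-type mice without overlap, and within myeloid progenitors the genotypes overlapped. Elane rose in knockout LSK cells by 1.91 ± 0.39 (SE), a 3.75-fold difference (limma, adjusted p = 0.0311). In myeloid progenitors the difference was -0.33 ± 0.39 (adjusted p = 0.90). The difference between these 2 effects, 2.24 ± 0.55, had an unadjusted p of 0.00295 and an adjusted p of 0.321 and was not called. Between the populations Elane was 20.1-fold lower in wild-type LSK cells than in wild-type myeloid progenitors (-4.33 ± 0.39, adjusted p = 0.000283) and 4.25-fold lower in the knockout (-2.09 ± 0.39, adjusted p = 0.0101).

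Ctsg encodes cathepsin G, another serine protease of the same granules. Its values were 11.42 and 12.39 in wild-type LSK cells, 12.88 and 13.36 in knockout LSK cells, 14.16 and 14.04 in wild-type myeloid progenitors and 14.02 and 14.14 in knockout myeloid progenitors. As for Elane, the wild-type LSK mice were lowest, the knockout LSK mice lay between, and the myeloid progenitors of both genotypes overlapped at the top. Ctsg rose by 1.21 ± 0.29 in knockout LSK cells (2.32-fold, limma adjusted p = 0.0471) and differed by -0.02 ± 0.29 in myeloid progenitors (adjusted p = 0.997). It was 4.57-fold lower in wild-type LSK cells than in wild-type myeloid progenitors (-2.19 ± 0.29, adjusted p = 0.00117). In the knockout this difference was -0.96 ± 0.29 (adjusted p = 0.0585).

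The other 4 primary granule genes did not pass the test between genotypes or between populations. Mpo, which encodes myeloperoxidase, had mouse means of 14.58 and 15.26 in wild-type LSK cells and 15.09 and 15.62 in knockout LSK cells, which overlap, and 15.35 to 15.76 in myeloid progenitors. Prtn3, the gene of proteinase 3, ranged from 14.53 to 15.20 over all 8 mice with the 4 groups overlapping, and Srgn, the gene of the proteoglycan serglycin that packs proteases into granules, from 13.65 to 14.13. Mpo and Prtn3 lie close to the highest value of the table (15.93), and whether their probes were near saturation was not tested. Ctsc encodes cathepsin C, which trims elastase, cathepsin G and proteinase 3 into active enzymes. It was the member of this class with a negative difference in both populations: 10.70 and 11.16 in wild-type and 10.14 and 10.52 in knockout LSK cells, and 10.80 and 10.59 in wild-type and 10.18 and 10.27 in knockout myeloid progenitors. The knockout mice lay below the wild-type mice in each population, with differences of -0.60 ± 0.23 (adjusted p = 0.217) and -0.47 ± 0.23 (adjusted p = 0.524). The median change of the 6 primary granule genes was 0.30 in LSK cells and -0.05 in myeloid progenitors.

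Elane and Prtn3 are neighbours on mouse chromosome 10, with start sites 6.64 kb apart. Elane differed 20.1-fold between the wild-type populations, while Prtn3 differed by -0.31 ± 0.20 (adjusted p = 0.368), so the promoters of both are shown with that of Ctsg, which was called in the same comparisons of wild-type populations and of LSK genotypes as Elane. Each sequence is the 250 bases before the start site in RefSeq (GRCm38.p6), 5′ to 3′ on the gene's strand. Elane is at chr10:79886062-79886311 on the plus strand, Prtn3 at chr10:79879417-79879666 on the plus strand and Ctsg at chr14:56102575-56102824 on the minus strand. Capitals mark the letters GAGGAA, a core recognised by PU.1, and AACNGTT or AACNGNC, a core recognised by MYB, on either strand.
Elane: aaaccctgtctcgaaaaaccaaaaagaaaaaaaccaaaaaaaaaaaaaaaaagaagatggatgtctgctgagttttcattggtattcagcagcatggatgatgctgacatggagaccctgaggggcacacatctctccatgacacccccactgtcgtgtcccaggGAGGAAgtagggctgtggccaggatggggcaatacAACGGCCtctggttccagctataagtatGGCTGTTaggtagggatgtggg
Prtn3: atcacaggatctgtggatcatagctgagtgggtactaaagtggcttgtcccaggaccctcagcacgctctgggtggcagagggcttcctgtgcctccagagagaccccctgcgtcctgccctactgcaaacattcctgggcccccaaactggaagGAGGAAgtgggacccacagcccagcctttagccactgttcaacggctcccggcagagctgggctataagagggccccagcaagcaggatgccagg
Ctsg: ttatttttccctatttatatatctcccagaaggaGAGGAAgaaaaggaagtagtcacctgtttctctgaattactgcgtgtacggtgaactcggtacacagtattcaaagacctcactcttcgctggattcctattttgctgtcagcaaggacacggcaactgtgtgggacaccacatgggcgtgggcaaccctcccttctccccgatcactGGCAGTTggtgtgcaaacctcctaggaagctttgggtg

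All 3 windows hold 1 match to the PU.1 letters. In Elane it begins 85 bases and in Prtn3 95 bases before the start site, and in Ctsg 216 bases before it. Elane has 2 matches to the MYB letters, 50 and 22 bases before the start, Ctsg has 1, 38 bases before it, and Prtn3 has 0. Of the primary genes that were not called, Mpo has 1 MYB and 2 PU.1 matches, and Ctsc has 0 and 2. Srgn has 1 MYB match in 1 of its 2 promoters, so these letters did not set called genes apart. Of the 30 members with an entry in the promoter table, 16 hold the PU.1 letters, against 25.9% of all 27025 genes in it, and 12 hold the MYB letters, against 33.5%. These matches describe letters only and are not binding sites.

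Of the 3 genes that mark committed granulocyte-monocyte progenitors, 3 were called lower in wild-type LSK cells than in wild-type myeloid progenitors. None of them passed the genotype test in either population. Over all genes 5.46% were called lower between the wild-type populations. Between the genotypes 4.64% of all genes were called in LSK cells and 2.64% in myeloid progenitors. Ms4a3, a membrane protein gene used to trace cells descended from granulocyte-monocyte progenitors, had values of 9.27 and 10.51 in wild-type LSK cells, 11.27 and 12.31 in knockout LSK cells, 12.84 and 13.13 in wild-type myeloid progenitors and 13.29 and 13.10 in knockout myeloid progenitors. The LSK genotypes did not overlap, but mice of each LSK group lay more than 1 log2 unit apart. The knockout difference in LSK cells was 1.90 ± 0.46 (3.74-fold, limma adjusted p = 0.0743), which did not pass, and in myeloid progenitors it was 0.21 ± 0.46 (adjusted p = 0.967). The LSK difference passed in 6 of 18 alternative fits. Among them were both fits with the arrays fitted singly and the mouse as a block, and both fits limited to brighter probes. Of the fits that left out mice, it passed only without mouse 2 and without mouse 3. The LSK difference ranged from 1.28 to 2.52 when 1 mouse was left out. Ms4a3 was 8.53-fold lower in wild-type LSK cells than in wild-type myeloid progenitors (-3.09 ± 0.46, adjusted p = 0.00578).

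Fcnb, the gene of ficolin B, a lectin of immature granulocytes, was 8.30 and 8.13 in wild-type and 8.68 and 9.16 in knockout LSK cells, with 9.89 and 9.59 in wild-type and 9.86 and 9.25 in knockout myeloid progenitors. Its order matched that of Elane, with no overlap of the LSK genotypes and a knockout difference of 0.71 ± 0.26 there (adjusted p = 0.195). In wild-type mice Fcnb was 2.88-fold lower in LSK cells (-1.53 ± 0.26, adjusted p = 0.00385). Clec12a, an inhibitory lectin receptor of myeloid cells, was dim (6.01 to 6.86), overlapped between the genotypes (0.08 ± 0.13 in LSK cells, adjusted p = 0.844) and was at least 1.46-fold lower in LSK cells of wild-type mice (adjusted p = 0.0202) and at least 1.44-fold lower in those of knockout mice (adjusted p = 0.0263).

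The late granule genes comprised 9 members with 8 measured, and most of them lay higher in LSK cells than in myeloid progenitors. Ltf encodes lactoferrin, the iron-binding protein that defines secondary granules. Its mouse means were 14.03 and 13.96 in wild-type LSK cells, 13.65 and 14.08 in knockout LSK cells, 12.46 and 12.00 in wild-type myeloid progenitors and 12.83 and 12.73 in knockout myeloid progenitors. All 4 LSK mice lay above all 4 myeloid progenitor mice. Ltf was 3.39-fold higher in LSK cells of wild-type mice (1.76 ± 0.21, limma adjusted p = 0.000432) and 2.12-fold higher in those of knockout mice (1.08 ± 0.21, adjusted p = 0.00753). Its knockout difference was -0.13 ± 0.21 in LSK cells (adjusted p = 0.844) and 0.55 ± 0.21 in myeloid progenitors (adjusted p = 0.308), where the genotypes did not overlap.

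Lcn2, the gene of the siderophore-binding protein lipocalin-2, was the only member that passed the knockout test in myeloid progenitors. It stood at 11.84 and 11.48 in wild-type LSK cells, 11.94 and 12.29 in knockout LSK cells, 10.67 and 10.73 in wild-type myeloid progenitors and 11.93 and 11.76 in knockout myeloid progenitors. The wild-type myeloid progenitors were lowest, and the knockout myeloid progenitors reached the range of the LSK cells. Lcn2 rose by 1.14 ± 0.21 in knockout myeloid progenitors (2.21-fold, limma adjusted p = 0.0168). In LSK cells the difference was 0.46 ± 0.21 (adjusted p = 0.326), and the mean over both populations was 0.80 ± 0.15 (adjusted p = 0.00773). In wild-type mice Lcn2 was 1.95-fold higher in LSK cells (0.96 ± 0.21, adjusted p = 0.0127), and in knockout mice the difference was 0.27 ± 0.21 (adjusted p = 0.488).

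Camp, the gene of the antimicrobial peptide cathelicidin, was 14.56 and 14.38 in wild-type and 14.63 and 14.67 in knockout LSK cells, and 13.88 and 13.78 in wild-type and 14.11 and 14.01 in knockout myeloid progenitors. The populations did not overlap, with LSK cells 1.56-fold higher in wild-type mice (0.64 ± 0.15, adjusted p = 0.0189) and 1.51-fold higher in knockout mice (0.59 ± 0.15, adjusted p = 0.028). Mmp9, which encodes gelatinase B of the tertiary granules, was the late gene with the lowest knockout difference in LSK cells. It stood at 11.66 and 11.48 in wild-type LSK cells, 10.50 and 11.09 in knockout LSK cells and 10.13 to 10.43 in myeloid progenitors. Both knockout LSK mice lay below both wild-type LSK mice, by -0.78 ± 0.24 (adjusted p = 0.115). Mmp9 was 2.41-fold higher in LSK cells of wild-type mice (1.27 ± 0.24, adjusted p = 0.00647), with a difference of 0.54 ± 0.24 in knockout mice (adjusted p = 0.191).

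Ngp, the gene of neutrophilic granule protein, was 9.56 and 9.76 in wild-type and 10.57 and 10.62 in knockout myeloid progenitors, without overlap, and its difference of 0.93 ± 0.30 did not pass (adjusted p = 0.184). Cd177, a surface glycoprotein of neutrophils that also sits in secondary granules, was 7.60 and 7.25 against 8.15 and 8.04 there, a difference of 0.67 ± 0.21 (adjusted p = 0.162). In LSK cells the genotypes of Cd177 did not overlap either, with 7.95 and 7.73 in wild-type and 8.00 and 8.38 in knockout mice. That difference was 0.35 ± 0.21 (limma adjusted p = 0.477). For Ngp the LSK genotypes overlapped, with a difference of 0.42 ± 0.30 (limma adjusted p = 0.571). Mmp8, the gene of neutrophil collagenase, overlapped between genotypes in both populations, with differences of 0.20 ± 0.33 in LSK cells and 0.33 ± 0.33 in myeloid progenitors. Hp, the gene of the haemoglobin scavenger haptoglobin, went the other way from the rest of the class, being 1.79-fold lower in LSK cells of wild-type mice (-0.84 ± 0.18, adjusted p = 0.0129). Its arrays disagreed within a mouse with an SD of 0.81, against 0.07 to 0.24 for the other 33 members, and mouse 2 alone gave 13.35, 11.28 and 13.01. With the arrays fitted singly and the mouse as a block, Hp was not called (adjusted p up to 0.547).

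Across the 8 measured late genes in myeloid progenitors, 5 had both knockout mice above both wild-type mice and 0 had them below. The shares over all genes were 20.3% and 20.8%. In LSK cells 4 of the late genes had them above and 1 below, against 25.7% and 20.9% of all genes. The median knockout change of the late genes was 0.44 in myeloid progenitors and 0.27 in LSK cells. Of the 8 changes 7 and 6 were positive, against 50.5% and 54.5% of all genes. The promoters of Lcn2 and Ltf, the late genes with the lowest adjusted p in the genotype and population comparisons, are shown in the same way, from chr2:32387740-32387989 on the minus strand and chr9:111019042-111019291 on the plus strand (GRCm38.p6). Here capitals mark TTNNGNAA, a core recognised by C/EBP factors, GAGGAA for PU.1, and AAATCA for GFI1, on either strand.
Lcn2: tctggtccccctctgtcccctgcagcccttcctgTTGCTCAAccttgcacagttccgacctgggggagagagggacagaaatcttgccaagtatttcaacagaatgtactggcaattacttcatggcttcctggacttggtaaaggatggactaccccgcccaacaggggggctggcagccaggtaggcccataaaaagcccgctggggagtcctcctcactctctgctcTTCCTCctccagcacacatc
Ltf: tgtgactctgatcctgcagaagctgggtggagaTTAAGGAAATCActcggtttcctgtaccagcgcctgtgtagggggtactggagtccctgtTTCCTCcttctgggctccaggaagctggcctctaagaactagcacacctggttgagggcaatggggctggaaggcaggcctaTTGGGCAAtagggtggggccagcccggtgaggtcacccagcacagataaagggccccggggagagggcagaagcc

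Lcn2 has 1 match to the C/EBP letters, beginning 216 bases before the start site, and 1 to the PU.1 letters, 20 bases before it. Ltf has 2 C/EBP matches, 217 and 75 bases before the start, the first running into a GFI1 match that begins 211 bases before it, and 1 PU.1 match, 157 bases before it. The 3 primary granule windows above hold 0 C/EBP matches, as do those of Mpo and Ctsc, while 1 of the 2 promoters of Srgn holds 5. Among the 30 members with a promoter entry, 16 hold the C/EBP letters, against 40.3% of its genes, and 4 hold the GFI1 letters, against 14.2%. Camp, with the same direction between populations as Ltf, holds none of the 4 motifs in its window.

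**Figure D3:**
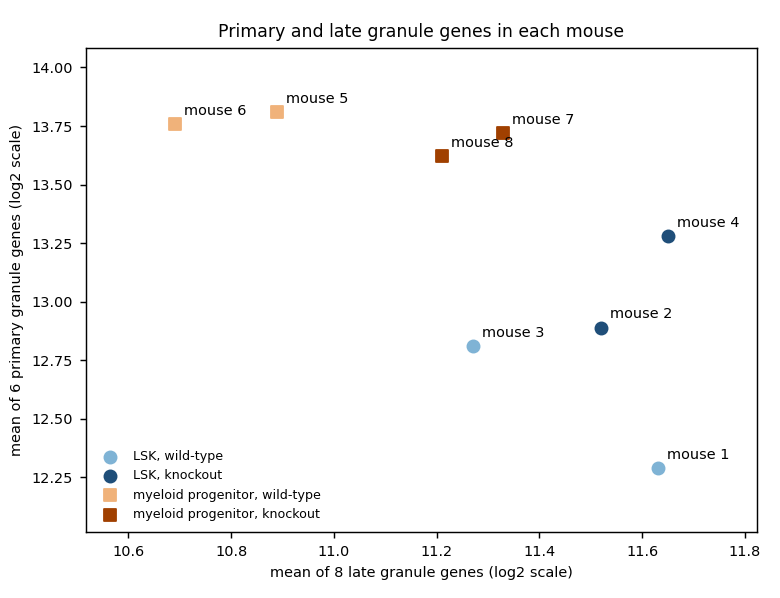
Mean of the 6 primary granule genes (y axis, log2 scale) against the mean of the 8 measured late granule genes (x axis, log2 scale), 1 point per mouse. Wild-type myeloid progenitors lie at the upper left (late means 10.69 and 10.89), knockout myeloid progenitors to their right (11.21 and 11.33), and LSK cells lower and further right, with the wild-type LSK mice lowest on the primary axis.

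Set beside each other, the class means of the 2 granule classes had opposite signs between the wild-type populations, primary lower and late higher in LSK cells and no test was made of the classes. The mean of the 6 primary genes was 12.29 and 12.81 in wild-type LSK cells, 12.89 and 13.28 in knockout LSK cells, 13.81 and 13.76 in wild-type myeloid progenitors and 13.72 and 13.62 in knockout myeloid progenitors. The mean of the 8 late genes was 11.63 and 11.27, 11.52 and 11.65, 10.89 and 10.69, and 11.33 and 11.21 in the same order. In LSK cells the knockout mice lay slightly above the wild-type mice on the primary mean (12.89 against 12.81 for the nearest mice). On the late mean the LSK genotypes overlapped. Gene by gene, both knockout LSK mice lay above both wild-type ones for 2 primary genes, Elane and Ctsg, and below for 1, and 3 overlapped. For the late genes these counts were 4, 1 and 3. Over all genes 25.7% lay above and 20.9% below. In myeloid progenitors the knockout mice lay above the wild-type mice on the late mean and slightly below them on the primary mean. The primary minus late difference was 0.66 and 1.54 in wild-type LSK cells, 1.37 and 1.63 in knockout LSK cells, 2.92 and 3.07 in wild-type myeloid progenitors and 2.39 and 2.41 in knockout myeloid progenitors. Only its change between mice can be read, since the offset depends on probe brightness. It was lower in both knockout than in both wild-type myeloid progenitor mice, and it overlapped between the genotypes in LSK cells, where mouse 1 stood apart from the other 3 mice. Over both genotypes the late means of the populations overlapped, with 11.27 in LSK mouse 3 and 11.33 in myeloid progenitor mouse 7. Both in wild-type and in knockout mice, 3 of the 6 primary genes overlapped between the populations. Over all genes, both wild-type LSK mice lay above both wild-type myeloid progenitor mice for 24.8% and below for 32.4%. In knockout mice these shares were 25.7% and 29.9%. In the wild-type comparison of populations the median difference was -0.46 for the primary genes (2 called lower) and 0.63 for the late genes (4 called higher, 1 lower). In the knockout it was -0.25 (1 called lower) and 0.27 (2 called higher). Over all genes 8.08% were called higher and 5.46% lower between the wild-type populations, and 7.26% and 5.49% between the knockout populations.

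Among the cytosolic effectors, Padi4 and Anxa3 were the clearest and moved in opposite directions. Padi4 encodes the peptidylarginine deiminase that citrullinates histones when neutrophils cast extracellular traps. Its mouse means were 11.70 and 11.92 in wild-type LSK cells, 11.85 and 11.63 in knockout LSK cells, 9.58 and 9.46 in wild-type myeloid progenitors and 10.37 and 10.13 in knockout myeloid progenitors. LSK cells were higher without overlap, by 2.29 ± 0.21 in wild-type mice (4.89-fold, limma adjusted p = 9.91e-05) and 1.49 ± 0.21 in knockout mice (2.81-fold, adjusted p = 0.00139). In myeloid progenitors the knockout mice lay above the wild-type mice by 0.73 ± 0.21 (adjusted p = 0.121), and in LSK cells the genotypes overlapped.

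Anxa3, a calcium- and phospholipid-binding annexin found on neutrophil granules, was 8.14 and 8.37 in wild-type LSK cells, 8.32 and 9.25 in knockout LSK cells, 12.05 and 10.98 in wild-type myeloid progenitors and 11.27 and 10.78 in knockout myeloid progenitors. It was lower in LSK cells, 9.60-fold in wild-type mice (-3.26 ± 0.40, adjusted p = 0.00127) and 4.73-fold in knockout mice (-2.24 ± 0.40, adjusted p = 0.00864), and the genotypes overlapped in both populations. S100a9, the larger subunit of calprotectin, stood at 14.26 and 13.84 in wild-type LSK cells and 13.40 and 13.08 in wild-type myeloid progenitors, 1.75-fold higher in LSK cells (0.81 ± 0.21, adjusted p = 0.0274). Its partner S100a8 gave no usable signal, with 5.98 to 6.26 in all 8 mice, the bottom of the table's range, so its differences carry no information on the gene. Anxa1, an annexin that restrains neutrophil recruitment, ranged from 11.92 to 13.08 and passed no comparison.

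Of the 5 transcription factors, 2 rose in knockout LSK cells, where 1.74% of all genes were called higher. Cebpe, the C/EBP factor required for secondary granule formation, had values of 9.96 and 10.24 in wild-type LSK cells, 10.97 and 11.05 in knockout LSK cells, 11.98 and 11.63 in wild-type myeloid progenitors and 12.25 and 12.13 in knockout myeloid progenitors. The knockout mice lay above the wild-type mice in both populations, by 0.91 ± 0.21 in LSK cells (1.88-fold, limma adjusted p = 0.0349) and by 0.39 ± 0.21 in myeloid progenitors (adjusted p = 0.58). Over both populations Cebpe rose by 0.65 ± 0.15 (adjusted p = 0.021). It was lower in LSK cells of wild-type mice by 3.26-fold (-1.71 ± 0.21, adjusted p = 0.000501) and of knockout mice by 2.28-fold (-1.19 ± 0.21, adjusted p = 0.00472), the opposite side from Ltf and Camp.

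Cebpb, the C/EBP factor of emergency granulopoiesis, was 9.66 and 9.44 in wild-type LSK cells and 10.85 and 10.32 in knockout LSK cells, without overlap, a rise of 1.04 ± 0.23 (2.05-fold, adjusted p = 0.034). In myeloid progenitors its values of 10.27 and 10.13 in wild-type and 10.34 and 10.55 in knockout mice differed by 0.24 ± 0.23 (adjusted p = 0.852). Cebpa, the factor that commits progenitors to the granulocyte-monocyte path, ranged from 8.47 to 9.28 in LSK cells and from 9.52 to 9.97 in myeloid progenitors, with the genotypes overlapping in both. It was 2.12-fold lower in LSK cells of knockout mice (-1.08 ± 0.29, adjusted p = 0.0334), and the wild-type difference of -0.87 ± 0.29 did not pass (adjusted p = 0.0764). Gfi1, a repressor that favours the neutrophil over the monocyte fate, overlapped between genotypes and had differences of -0.86 ± 0.26 (adjusted p = 0.0578) and -0.59 ± 0.26 (adjusted p = 0.189) between the populations. Cebpd was near the array's lower range, at 6.76 to 7.09, and passed no comparison.

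Ncf1 and Ncf4 encode the cytosolic p47phox and p40phox subunits of the NADPH oxidase, the enzyme of the neutrophil's oxidative burst. Ncf1 was 10.61 and 10.36 in wild-type and 10.74 and 10.84 in knockout LSK cells, and 11.01 and 10.95 in wild-type and 11.55 and 11.44 in knockout myeloid progenitors. The knockout mice lay above the wild-type mice in both populations, by 0.31 ± 0.20 (adjusted p = 0.517) and 0.52 ± 0.20 (adjusted p = 0.308). Ncf1 was 1.63-fold lower in LSK cells of knockout mice (-0.70 ± 0.20, adjusted p = 0.0396). Ncf4 ranged from 9.50 to 10.36, with knockout differences of 0.45 ± 0.21 in LSK cells and 0.05 ± 0.21 in myeloid progenitors, neither called.

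Among the receptors, Ltb4r1 gave the lowest adjusted p of the 34 genes in the LSK genotype comparison. It encodes the high-affinity receptor for leukotriene B4, a lipid that draws neutrophils to sites of injury. Its mouse means were 11.17 and 11.20 in wild-type LSK cells, 12.33 and 12.45 in knockout LSK cells, 12.56 and 12.76 in wild-type myeloid progenitors and 12.91 and 12.76 in knockout myeloid progenitors. Wild-type LSK cells stood apart at the bottom, and knockout LSK cells came to within 0.44 ± 0.18 of the knockout myeloid progenitors. Ltb4r1 rose by 1.21 ± 0.18 in knockout LSK cells (2.31-fold, limma adjusted p = 0.00391), differed by 0.18 ± 0.18 in myeloid progenitors (adjusted p = 0.864), and was 2.78-fold lower in wild-type LSK cells than in wild-type myeloid progenitors (-1.47 ± 0.18, adjusted p = 0.000503). The difference between the knockout effects, 1.03 ± 0.25, was not called (adjusted p = 0.279).

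Fpr2, a receptor for formylated bacterial peptides, was 11.43 and 10.99 in wild-type and 11.77 and 11.74 in knockout LSK cells, and 10.47 and 10.27 in wild-type and 11.35 and 11.10 in knockout myeloid progenitors. The genotypes did not overlap in either population. The separate differences of 0.55 ± 0.22 (adjusted p = 0.235) and 0.85 ± 0.22 (adjusted p = 0.0811) did not pass, while over both populations Fpr2 rose by 0.70 ± 0.15 (1.62-fold, adjusted p = 0.0185). It was 1.79-fold higher in LSK cells of wild-type mice (0.84 ± 0.22, adjusted p = 0.0286). Its neighbour Fpr1, with a start site 3.88 kb away on chromosome 17, was near the lower range (6.59 to 6.92) and passed no comparison. Itgam and Itgb2, the chains of the integrin Mac-1 by which neutrophils adhere, ranged from 9.60 to 10.55 and from 10.87 to 11.59 and passed no comparison.

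**Figure D4:**
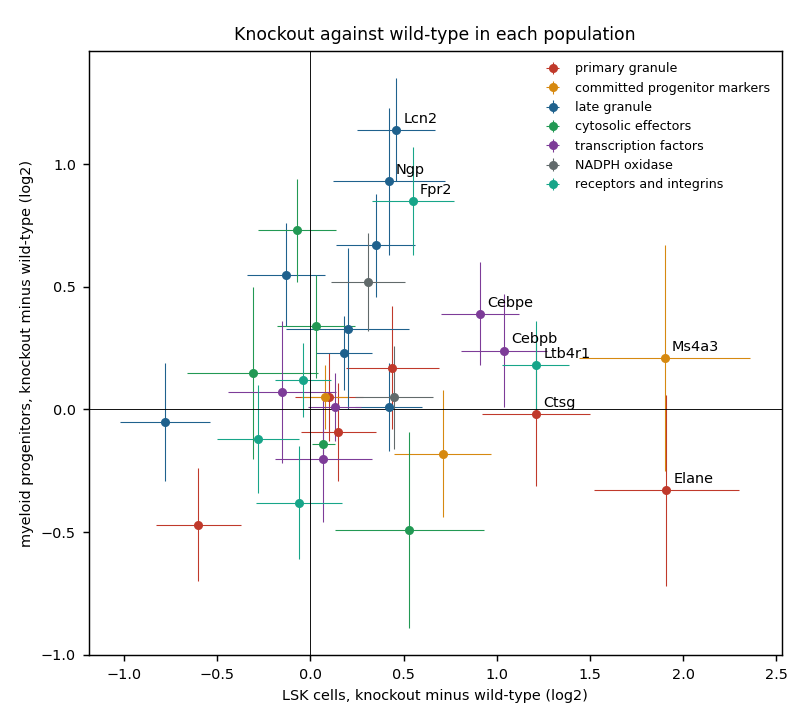
Knockout minus wild-type (log2) of the 34 genes in LSK cells (x axis) and in myeloid progenitors (y axis), coloured by role. Points are limma estimates and bars are 1 SE, and the LSK and myeloid progenitor values come from different mice. Elane, Ms4a3, Ctsg and Ltb4r1 lie far to the right near 0 on the y axis, and Lcn2, at 0.46 and 1.14, is the highest point.

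**Figure D5:**
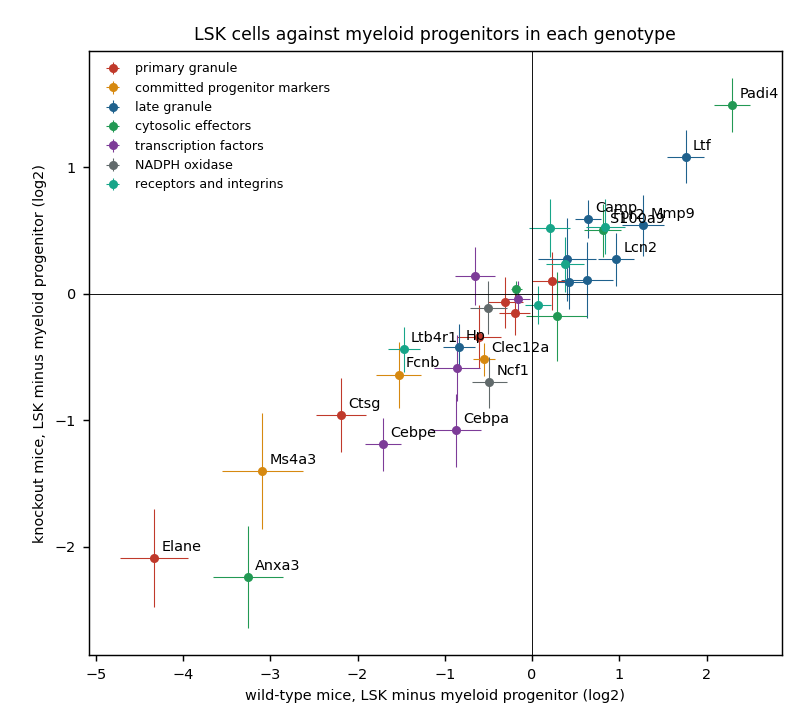
LSK cells minus myeloid progenitors (log2) of the 34 genes in wild-type mice (x axis) and in knockout mice (y axis), coloured by role. Points are limma estimates and bars are 1 SE, and genes called in either comparison are named. Elane is at -4.33 in wild-type and -2.09 in knockout mice, and Padi4 is at 2.29 and 1.49.

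Single mice mattered for the genotype calls. In LSK cells Ltb4r1 kept its call under all 18 alternative fits (1.15 to 1.27). Elane was lost in 7 of them, among them without mouse 1 (1.45, adjusted p = 0.117), without mouse 4 and without both mice that carry a Kdm5d signal (1.45, adjusted p = 0.186). Ctsg was lost in 10 (0.73 to 1.69), and Cebpb (0.77 to 1.30) and Cebpe (0.77 to 1.05) in 8 each. Lcn2 in myeloid progenitors was lost without any 1 of mice 5, 6, 7 and 8 (1.06 to 1.23, adjusted p up to 0.127). Of the calls for the mean of both populations, Lcn2 held under all 17 alternatives that give it. Fpr2 fell short in 4, each leaving out 1 mouse, 3, 6, 7 or 8 (0.59 to 0.81, highest adjusted p 0.0873), Cebpe in 5 (adjusted p up to 0.092), Cebpb in 9 (adjusted p up to 0.186) and Ltb4r1 in 1, without both Kdm5d mice (adjusted p = 0.0686). Of the 16 calls between the wild-type populations, those of Elane, Ctsg, Ms4a3, Ltf, Ltb4r1, Cebpe, Padi4 and Anxa3 held under all 18. Between the knockout populations Padi4 held under all 18, while Ncf1 was lost in 8 (adjusted p up to 0.235), Clec12a, Camp and Cebpa in 4 each, Elane in 2, and Ltf, Cebpe and Anxa3 in 1 each.

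Genes of the neutrophil lineage outside the 37 were read from a list of 26, of which 20 had a probe. In knockout LSK cells 1 of the 20 rose, Nkg7, a granule membrane gene of cytotoxic and myeloid cells (1.14 ± 0.21, limma adjusted p = 0.0138). In knockout myeloid progenitors 1 rose, Olfm4, which marks a subset of neutrophils: it went from 5.91 and 5.94 to 6.92 and 6.73, at least 1.87-fold (adjusted p = 0.0446), from a dim level. The call of Nkg7 was lost in 3 of 18 alternative fits (1.13 to 1.15) and that of Olfm4 in 8 of 17 (0.81 to 1.0). The fits that lost Olfm4 included those without any 1 of mice 5, 6, 7 and 8. The list's median change was 0.06 in LSK cells and 0.12 in myeloid progenitors. Over all genes 4.64% and 2.64% were called in either direction, and 1.74% and 0.908% were called higher. Between wild-type LSK cells and myeloid progenitors 3 of the 20 were higher and 6 lower, with 8.08% of all genes called higher and 5.46% lower. Among the lower were Fcgr3, an Fc receptor (-2.60 ± 0.28, adjusted p = 0.000284), Cst7, a cysteine protease inhibitor (-2.52 ± 0.26, adjusted p = 0.000199), and Hdc, which makes histamine (-2.10 ± 0.36, adjusted p = 0.00612). Higher in LSK cells were Alox5ap (0.90 ± 0.25, adjusted p = 0.0374), Spi1, which encodes PU.1 (0.89 ± 0.24, adjusted p = 0.0347), and Retnlg (0.75 ± 0.21, adjusted p = 0.0429). Cxcr2, the chemokine receptor of mature neutrophils, was near the lower range in all mice, at 6.81 to 7.59.

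Markers of some other cells moved with the genotype. To set beside the counts below, 1.74% of all genes were called higher and 2.9% lower in knockout LSK cells. In knockout myeloid progenitors these shares were 0.908% and 1.74%. Of 11 measured monocyte and macrophage genes, 3 fell in knockout myeloid progenitors, F13a1, Mpeg1 and Adgre1, and 0 rose, with a list median of -0.94; each of these 3 calls was lost in 5 or 6 of 18 alternative fits. The list's summed level on the linear scale was 30246 to 33599 in the wild-type and 16817 to 20878 in the knockout mice. Such a sum, here and for the lists below, is weighted toward the brightest probes of a list. It can therefore move with 1 bright probe while the other genes of the list do not. In LSK cells 1 of the 11 rose, Cd68, and 1 fell, Mpeg1, with a median of -0.53 and summed levels of 9241 to 11022 and 9547 to 10617. There the Cd68 call was lost in 0 of 18 alternative fits and the Mpeg1 call in 4. Mpeg1 had 2 probes, and with both averaged its call was lost in both populations. Over the alternative fits the change of Mpeg1 was as small as -0.61 in LSK cells and -0.65 in myeloid progenitors. Of 8 measured B-lineage genes 5 fell in each population, with medians of -2.63 in LSK cells and -1.98 in myeloid progenitors. The summed B-lineage level was 21043 to 23674 in wild-type and 2393 to 3764 in knockout LSK cells, and 11599 to 18662 and 2585 to 2758 in myeloid progenitors.

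Of 7 measured megakaryocyte genes, 2 rose in knockout myeloid progenitors, Gp5 (1.50 ± 0.23) and Gp1bb (1.27 ± 0.26), and 1 fell, Pf4 (-1.23 ± 0.24), with a median of 1.22 and summed levels of 9835 to 11811 in wild-type and 11996 to 13989 in knockout mice. In knockout LSK cells Gp5 rose (1.16 ± 0.23) and Pf4 fell (-1.21 ± 0.24), with a median of 0.22 and summed levels of 5765 to 8103 and 5788 to 7580. Of these 5 megakaryocyte calls, that of Gp5 in myeloid progenitors was lost in 1 of 18 alternative fits, without mouse 8 (adjusted p = 0.0828), and the others in 3 to 6, with adjusted p up to 0.212. Of 9 basophil and mast cell genes, Mcpt8 rose (2.42 ± 0.18 in LSK cells and 1.46 ± 0.18 in myeloid progenitors) and Prss34 fell (-2.79 ± 0.19 and -1.73 ± 0.19) in both populations, with list medians of 0.28 and -0.10, and these 4 calls held in all 18 alternative fits. Their summed levels were 12201 to 15038 in wild-type and 20468 to 21717 in knockout LSK cells, and 29494 to 31900 and 33562 to 36998 in myeloid progenitors. Of 9 measured stem cell genes 0 passed in either population (limma), with 7 negative and a median of -0.43 in LSK cells, where the summed level was 43840 to 51508 in wild-type and 35347 to 37273 in knockout mice, and a median of 0.34 in myeloid progenitors. At an unadjusted p under 0.05, 2 of the 9 passed in LSK cells, where 16.6% of all genes did. In myeloid progenitors 5 of the 9 passed, where 11.4% of all genes did. None of 5 measured eosinophil genes (medians -0.65 and 0.41) and 8 erythroid genes (medians 0.42 and -0.09) passed in either population by limma, with 1 eosinophil gene at an unadjusted p under 0.05 in LSK cells and 2 erythroid genes in myeloid progenitors. The part of these markers in the changes of the granulocyte genes was not tested.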

How the data were processed

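RNA of sorted bone marrow cells was amplified, labelled with Cy5 and measured on 24 arrays of 1 colour, per the labels' protocols. The deposited table holds log2 values, normalized by the authors between arrays (at each rank the arrays differ by at most 0.0451). The submitters' processing notes name limma, and the sources used here do not give the background correction. Array precision is limited by the number of mice. Nothing in the labels says whether the 3 arrays of a mouse share an RNA extract, so they were averaged first.

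From these values, limma 3.58.1 in R 4.3.3 was fitted to 8 mouse means in 4 groups (lmFit, with trended and robust eBayes and 4 residual degrees of freedom), with 6 contrasts, two-sided tests and Benjamini-Hochberg adjustment over all 22439 probes, called under 0.05. The fit was tested on simulated data. An exact permutation test of 2 mice against 2 cannot go below p = 0.333 and was not used. Probes were named through the platform annotation and RefSeq (GRCm38.p6): 18213 by current symbol, 2126 through a synonym, 36 by the array's own name, and 2064 stayed unnamed. The brightest probe stood for a gene.

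All 37 members may be named, and from each other list up to 4 genes per comparison, those called with the largest change. Members, lists and motifs were chosen with earlier results of these data known. Alternatives were other blocks, samples, moderation, filters, normalizations and thresholds. Promoters were searched over 250 bases before the start site, the 50 bases after it being left out, and 30 of the 37 members had an entry. Anxa3, Cebpd, Cebpe, Hp, Itgb2, Mmp9 and Ncf4 had none.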

Additional observations from a re-analysis of the deposited data

Results flagged for a closer look

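For each of the 34 genes the 6 arrays of each group were searched for 1 array far from the other 5, measured by its gap over the group's range. Of 136 gene and group combinations, 5 had such an array. The cut-off would give about 1 in 20, or 6.8, if the 6 arrays were independent. They were 3 arrays from each of 2 mice, and a gap between the mice widens the range. That rate therefore does not apply, and whether such arrays were rare or common cannot be read from the count. Hp on array 2 of mouse 3 (wild-type LSK cells) read 10.80, with the other arrays of the group between 12.03 and 12.71. Cebpe on array 2 of mouse 8 (knockout myeloid progenitors) read 11.87, below 12.17 to 12.32. Gfi1 on array 3 of mouse 2 (knockout LSK cells) read 9.96, below 10.42 to 10.63. Clec12a on array 1 of mouse 3 (wild-type LSK cells) read 6.45, above 5.98 to 6.15, and S100a8 on array 1 of mouse 6 (wild-type myeloid progenitors) read 6.78, above 5.89 to 6.16, both at the dim end of the table.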

How the results depend on the processing

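Counts of members called depended on how the arrays of a mouse entered the fit. With all arrays and the mouse as a random block, they were 10 in LSK cells, 7 in myeloid progenitors, 14 for the mean, 6 for the difference of effects (0 with mouse means) and 18 between knockout populations. Adding the array number as a replicate block gave the same counts (10, 7, 14, 6 and 18), but not all for the same genes. In LSK cells Ncf4 (0.45 with mouse means) was called only without the array number, and Ctsc (-0.60) only with it. Mmp9 (-0.78) was called there in both fits, so not every added call was upward. Same-numbered arrays of different mice had a median r of 0.01 for their deviations, against 0.0 for arrays of different number. Over 84 same-numbered pairs r ran from -0.25 to 0.28, and 9 pairs were over 0.1. A median near 0 does not exclude that single genes follow the array number. For Hp, array 1 read above array 3 in every mouse but mouse 1, and this was not tested. Only the groups compared gave 1 in LSK cells and 2 in myeloid progenitors, and plain eBayes 2 in LSK cells. Probes above the 50th percentile gave 2 in myeloid progenitors and 8 for the mean. With mice 1 and 5, which show Kdm5d, both left out, the counts were 1, 0, 2 for the mean and 8 between wild-type populations. At an adjusted p under 0.01 they were 1, 0, 2, 10 between wild-type and 4 between knockout populations. Leaving out 1 mouse gave 1 to 4 in LSK cells, 0 to 1 in myeloid progenitors, 2 to 6 for the mean, 10 to 18 between wild-type and 3 to 10 between knockout populations, a lone mouse being assumed to vary like the others. The shares of all genes called in these fits are not given here. Whether members gained or lost calls more than other genes therefore cannot be read from the counts. The causes were not tested. Of the single-gene values under these alternatives, 3343 kept a call in its direction or stayed uncalled. A call was lost by 109 and gained by 122, and 0 called values reversed. Among the values that stayed uncalled, 115 changed sign. Of the medians of the member lists, 758 stayed within the spread between mice of a group and 90 moved further. With 2 mice a group, a difference must exceed its SE several times over to be called, and the dim probe of Clec12a gives minimum folds only.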
